A study of Mus musculus with 16 samples.

Results

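In fat cells given rosiglitazone for 1 h, 1566 of 30588 PPARγ binding sites gained the coactivator subunit MED1, and these sites are described here. They were selected on their MED1 values. The higher of the DMSO and rosiglitazone values had to reach 100 deposited units, and the log2 ratio of rosiglitazone to DMSO, after adding a pseudocount of 1 to both, had to reach 1. The rule took 5.12% of the PPARγ peaks, and 68.1% of the 2301 peaks with a MED1 value of 100 or more in either treatment. The number depends on the scaling of the MED1 columns. With the columns set to the same sum over all PPARγ peaks, a log2 shift of -0.70, the rule took 265 peaks, and with the log2 ratio centred on the median of peaks of that height it took 208. MED1 differences at these sites are therefore a description, and the other antibodies and the positions of the sites carry the comparisons.

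PPARγ is a nuclear receptor that binds DNA as a dimer with RXR, directs the making of fat cells and is bound by the antidiabetic drug rosiglitazone. Agonist binding reshapes a coactivator surface of the receptor. MED1 docks there through its LXXLL motifs and links the receptor to Mediator, the complex that contacts RNA polymerase II. CBP is a histone acetyltransferase that also serves nuclear receptors, and C/EBPα is a transcription factor that shares many fat cell enhancers with PPARγ.

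The cells were 3T3-L1 adipocytes, a mouse fibroblast line differentiated in culture with dexamethasone, 3-isobutyl-1-methylxanthine and insulin and used on day 7. Both groups carried the solvent, DMSO at 0.1%, and the treated group also received rosiglitazone at 1 µM. Chromatin immunoprecipitation with sequencing (ChIP-seq) counts DNA fragments bound by a protein. The deposited PPARγ list has 1 column per treatment for each of PPARγ, C/EBPα, MED1 and CBP, so differences between treatments lack any replicate check and are given without p-values. The cells are 1 line, and their identity was not checked, because these lists hold binding sites and no expression values.

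Depth differed between libraries and was lowest for the coactivators. Assuming that the deposited values are per 10 M tags (M, mega), the MED1 libraries held 2.86 M tags in DMSO and 1.31 M in rosiglitazone, CBP 4.52 M and 1.65 M, C/EBPα 4.53 M and 7.85 M, and PPARγ 11.4 M and 12.03 M. A tag stands for 1 sequenced fragment. One MED1 tag was worth 3.49 units in DMSO and 7.65 in rosiglitazone. All intervals below are exact 95% (Clopper-Pearson) intervals on tags and cover counting error only, since tags without molecular identifiers are not independent molecules. Peaks are given in the mm9 build as listed, with start and end 186 bp apart, and were not assigned to genes.

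The sites chosen for a MED1 gain ranged from nearly bare to heavily occupied before the ligand. MED1 in DMSO ran from 3.49 to 566 units with a median of 52.4, and in rosiglitazone from 107 to 1377 with a median of 153. The groups of values overlapped, since 172 of the 1566 sites already had 100 units or more in DMSO, while 81 had 5 tags or fewer. Summed over the sites, MED1 was 3.11 times as high in rosiglitazone (3.06 to 3.16), against 1.63 (1.61 to 1.64) over all PPARγ peaks. The median log2 ratio was 1.59, with quartiles of 1.30 and 1.99. At 1501 of the sites the interval of the single ratio lay above 1, and at 650 it lay above the ratio over all PPARγ peaks. Over all PPARγ peaks these shares were 10.2% and 3.38%, with median MED1 tags of only 2 in DMSO and 1 in rosiglitazone. The rule required a high ratio and enough tags, so these counts are shaped by the selection and are no comparison.

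**Figure D1:**
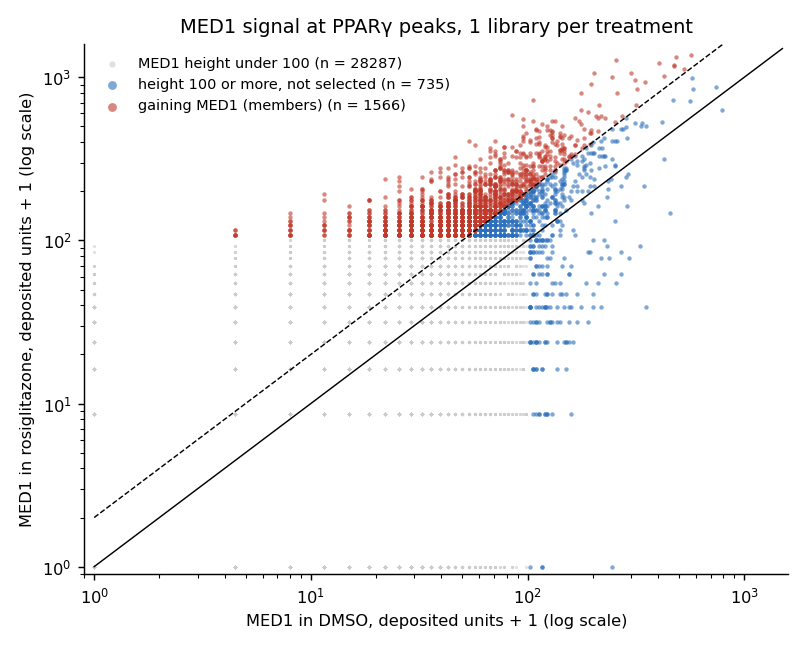
MED1 in rosiglitazone against MED1 in DMSO at each PPARγ peak, both in deposited units plus 1 on log scales, with the solid line at equality and the dashed line at a ratio of 2. The 1566 selected sites (members, red) lie on or above the dashed line from a rosiglitazone value of 107 upward, the 735 blue peaks reach 100 units with a log2 ratio under 1, and the grey peaks stay under that height.

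The edge of the selection was coarse because MED1 was shallow. A value of 100 needed 14 tags in rosiglitazone, and 179 of the sites had exactly that number. Another 193 peaks met the ratio with 13 tags and stayed outside. Just inside the ratio lay chr1:74074428-74074614, with 87.4 and 176 units in DMSO and rosiglitazone and a log2 ratio of 1.00. Also just inside were chr5:107866752-107866938 and chr6:87995178-87995364 with the same 2 values, and chr1:157883594-157883780 and chr6:72166722-72166908 with 133 and 268 units and a log2 of 1.01. The nearest peak outside, chr19:4144625-4144811, had 164 and 329 units and 0.998. The next 4 outside, chr10:76485352-76485538, chr19:44249431-44249617, chr8:109729644-109729830 and chr9:74823832-74824018, all had 83.9 and 168 units and 0.997. The 5 peaks just outside had PPARγ ratios from 3.78 to 13.7 and the 5 just inside from 1.61 to 2.72. In DMSO PPARγ ran from 3.52 to 57.2 units at the outer peaks and from 12.3 to 59.8 at the inner ones. Larger classes stood the other way. The 394 selected sites with the lowest MED1 ratios had a summed PPARγ ratio of 2.46. The 545 peaks of 100 or more MED1 units with a MED1 log2 ratio from 0 to under 1 had 2.23.

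The strongest MED1 sites were well occupied before treatment. At chr2:167527747-167527933 MED1 was 255 and 1278 units in DMSO and rosiglitazone, which is 5.01 times as high (3.78 to 6.69), and PPARγ was 206 and 604. The site chr16:35217050-35217236 had 203 and 1056 units of MED1, a ratio of 5.21 (3.81 to 7.21), and 149 and 329 of PPARγ. Both were low in DMSO by the standard of the 10 highest sites, where DMSO values reached 566 units. The site chr7:26177004-26177190 had 475 and 1186 units of MED1 and 227 and 583 of PPARγ. At chr17:56249238-56249424 MED1 was 301 and 1064 units, PPARγ 120 and 265, and C/EBPα 35.3 and 11.5.

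A pair of these sites lay close together on chromosome 7. The site chr7:35926552-35926738 had 402 and 1217 units of MED1 with 195 and 360 of PPARγ. Its neighbour chr7:35923645-35923831 had 472 and 1171 units of MED1 with 107 and 405 of PPARγ. Both antibodies were higher in rosiglitazone at both sites, with PPARγ ratios of 1.84 (1.56 to 2.18) and 3.77 (3.09 to 4.64).

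Of the other 4 among the 10 highest MED1 sites, 3 had small PPARγ differences. The top site, chr10:117147642-117147828, had 566 and 1377 units of MED1, and its PPARγ of 144 and 177 gave a ratio of 1.23 (0.997 to 1.51). At chr8:19784555-19784741 MED1 was 528 and 1117 units, PPARγ had a ratio of 1.46 (1.22 to 1.75) and C/EBPα one of 0.459 (0.337 to 0.624). At chr8:20020254-20020440 MED1 was 426 and 1010 units, with a PPARγ ratio of 1.29 (1.03 to 1.62). The fourth, chr10:117486472-117486658, had 482 and 1332 units of MED1 and a PPARγ ratio of 2.83 (2.42 to 3.31). Some of these sites carried high background. In 2 regions of 1 Mb, C/EBPα tags at PPARγ peaks without a C/EBPα peak had a median at least 3 times that of the genome. These regions held 57 PPARγ peaks, which is 0.19% of all. Of the selected sites 5 (0.32%) were among them, between 117147642 and 117486658 on chromosome 10, the highest and the next highest MED1 site included. Of the peaks with 100 or more MED1 units outside the selection, 1.63% lay there. Another measure, a place in the top percentile of every antibody in DMSO, marked 4 selected sites (0.26%). It marked 0.033% of all PPARγ peaks and 0.82% of the peaks with 100 or more MED1 units outside the selection. The 4 sites were chr2:167527747-167527933, chr6:119346337-119346523, chr8:19784555-19784741 and chr10:117147642-117147828. Without the 5 sites in high background the summed PPARγ ratio was 2.52, as with them.

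The highest MED1 ratios rested on 1 DMSO tag each and were not the strongest sites. The 5 sites with the highest log2 ratio, 4.59 to 4.69, had 3.49 units in DMSO and 107 to 115 in rosiglitazone. The ratio at chr1:63160871-63161057 was 32.8 with an interval of 5.05 to 1383, so its size was hardly fixed. PPARγ there was 15.8 and 24.1 units. At chr11:117181361-117181547, with the same MED1 values, PPARγ was 11.4 and 74.8 units, a ratio of 6.55 (3.64 to 12.8). The other 3, chr12:3856308-3856494, chr17:56362215-56362401 and chr4:136291777-136291963, had PPARγ ratios of 2.84, 2.84 and 2.61.

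PPARγ itself was higher in rosiglitazone at most of the sites. The median PPARγ value was 14.1 units in DMSO and 33.3 in rosiglitazone, and the summed ratio was 2.52 (2.49 to 2.55). At 906 sites (57.9%) PPARγ was at least 2-fold higher on the log2 scale with a pseudocount of 1, against a background of 30.0% of all PPARγ peaks. At 2 sites it was at least 2-fold lower, where 4.43% of all peaks were. The median log2 ratio was 1.14 at the sites and 0.50 over all peaks. The interval of the single PPARγ ratio lay above 1 at 1020 sites, where 28.1% of all peaks had it so, and below 1 at 2, where 3.83% did. The sites held more PPARγ tags than the list as a whole, with medians of 16 and 40 in DMSO and rosiglitazone against 12 and 17, and their intervals are narrower for it.

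The PPARγ share was similar at well covered sites. Among the 1522 sites with 20 or more PPARγ tags, 884 (58.1%) were at least 2-fold higher, where the background was 30.3%, and the same 2 sites were lower, where it was 4.03%. Scaling mattered more. Setting the PPARγ columns to the same sum over all peaks shifts every log2 ratio by -0.61, after which 480 sites (30.7%) were at least 2-fold higher against 14.7% of all peaks, and the median log2 ratio at the sites was 0.56.

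PPARγ peaks that reached the same MED1 height but fell short of the ratio had a smaller summed PPARγ difference. Over the 735 peaks that reached 100 units of MED1 outside the selection, PPARγ was 18.5 units in DMSO and 37.4 in rosiglitazone at the median, with a summed ratio of 1.94 (1.91 to 1.97). Most of these peaks also had somewhat more MED1 in rosiglitazone, and their summed MED1 ratio was 1.22 (1.20 to 1.25). Of the 735, 351 (47.8%) were at least 2-fold higher. The 545 with a MED1 log2 ratio from 0 to under 1 had a PPARγ ratio of 2.23 (2.19 to 2.27), and the 80 with one between -1 and 0 had 1.81 (1.74 to 1.89). At the 110 peaks where MED1 was at least 2-fold lower, PPARγ was 1.13 times as high (1.09 to 1.17). The summed PPARγ ratio thus stood in the order of the MED1 ratio across 4 classes, the selected sites and the last 3 named. Counted by peak, the 545 and the 80 did not stand in that order, with median PPARγ log2 ratios of 1.06 and 1.05 and shares at least 2-fold higher of 53.6% and 55.0%.

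Within the selected sites the order was shallower and was seen mainly in summed tags. Split at the quartiles of the MED1 ratio, from the lowest to the highest band, PPARγ ratios were 2.46 (2.40 to 2.52), 2.48 (2.42 to 2.53), 2.55 (2.49 to 2.60) and 2.59 (2.53 to 2.65). Neighbouring bands had overlapping intervals, while the lowest and the highest band did not. The MED1 ratios of these bands were 2.23, 2.73, 3.43 and 5.34. Sites with more MED1 before treatment had somewhat larger PPARγ ratios. They ran from 2.39 (2.29 to 2.49) at the 168 sites under 25 MED1 units in DMSO to 2.68 (2.63 to 2.74) at the 172 sites with 100 or more. These 2 groups also differed in the MED1 ratio, 7.15 and 2.79, since a low start needs a larger gain to reach the height. Their median PPARγ in DMSO was 11.4 and 34.7 units, and the part of each difference was not tested.

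**Figure D2:**
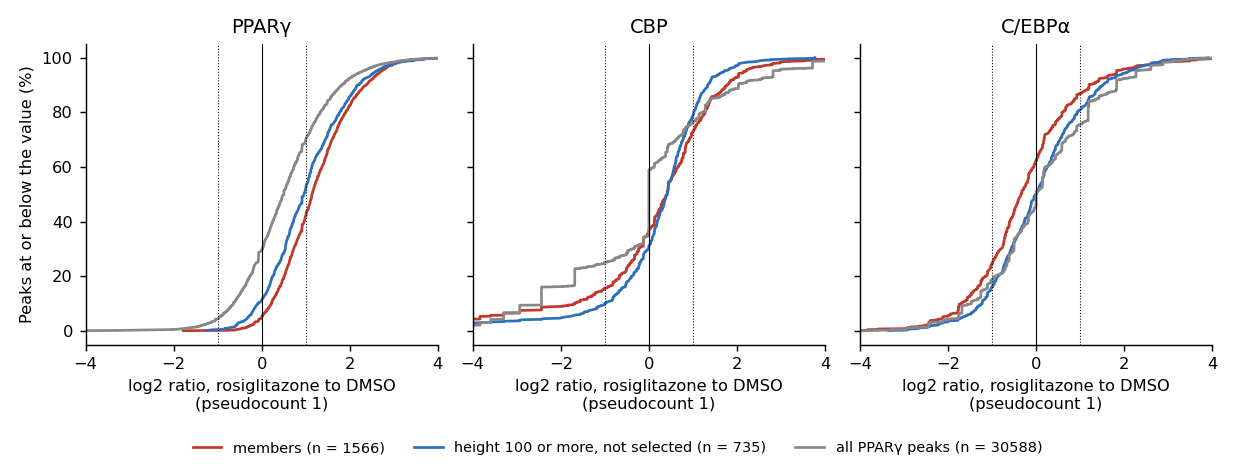
Cumulative share of peaks against the log2 ratio of rosiglitazone to DMSO for PPARγ, CBP and C/EBPα, with dotted lines at -1 and 1. The selected sites (members, red) lie to the right of all PPARγ peaks in PPARγ, where 57.9% against 30.0% pass the right dotted line, close to the peaks of like height in CBP, and to the left in C/EBPα.

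The selected sites were concentrated among strong PPARγ peaks, so peaks were also compared at like strength. The authors' peak score ranks the list, and 627 sites (40.0%) were in its highest decile while 243 (15.5%) were in the lower 5 deciles. This was not particular to the selection. Of the 735 peaks of like MED1 height outside it, 45.3% were in the highest decile and 8.30% in the lower 5. Of the 10 highest-scoring PPARγ peaks 6 were selected sites and 4 were among the 735. Of the 100 highest, 51 and 23 were, while the selection held 5.12% of all PPARγ peaks. The median focus ratio of the selected sites was 0.815, the same as over all peaks. HOMER gives this fraction for how tightly tags flank the peak centre. In each of 10 deciles the PPARγ ratio of the selected sites had an interval above that of the other peaks. Their ratios ran from 1.73 to 2.70 and those of the other peaks from 1.33 to 1.51. The score had a median of 0.998 times the scaled sum of PPARγ tags over the pair of libraries, so it is not independent of the PPARγ ratio.

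**Figure D3:**
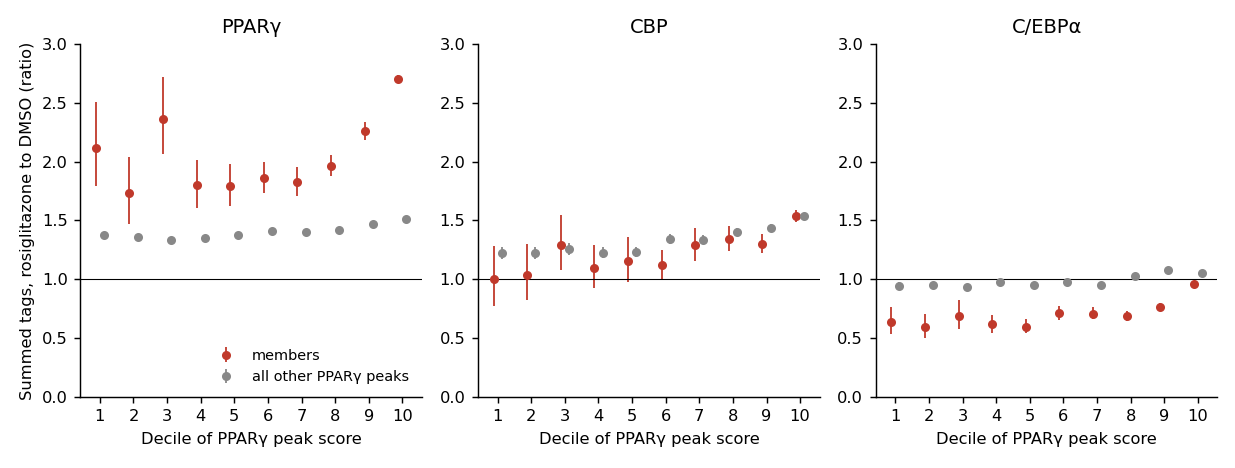
Summed ratio of rosiglitazone to DMSO for each factor by decile of PPARγ peak score, with exact 95% intervals, for the selected sites (members, red) and for all other PPARγ peaks (grey). The selected sites are above the others in PPARγ and below them in C/EBPα in all 10 deciles, and in CBP the intervals overlap in 8.

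Single sites ranged widely in PPARγ. At chr8:113249230-113249416 PPARγ was 1.76 and 99.8 units, a ratio of 56.7 (15.4 to 474) that rests on 2 DMSO tags. All 4 antibodies were higher there, with 10.5 and 191 units of MED1 and 24.3 and 121 of CBP. C/EBPα had 0 tags in DMSO and 14.01 units in rosiglitazone, at least 2.12-fold higher when set against a floor of 3 tags in that library. At chr1:189942119-189942305 PPARγ was 0.88 and 49.1 units, from 1 DMSO tag, on a site already rich in C/EBPα, with 115 and 183 units.

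Large PPARγ ratios with few DMSO tags continued down that order. At chr8:11777283-11777469 PPARγ was 1.76 and 54.9 units, a ratio of 31.2 (8.30 to 263). At chr7:35954368-35954554 it was 6.16 and 121 units, a ratio of 19.7 (9.33 to 49.9), while MED1 stood at 315 units before treatment and 673 after it. At chr2:29290464-29290650 it was 5.28 and 102 units, a ratio of 19.4 (8.65 to 53.8), with 31.5 and 115 of MED1. MED1 at these 5 sites in DMSO thus ran from 10.5 to 315 units, so a large PPARγ ratio occurred on sites with little and with much MED1 before treatment.

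At the other end, 78 sites (4.98%) had a PPARγ log2 ratio of 0 or less. This held at 29.5% of all PPARγ peaks and at 11.2% of the 735 peaks of like MED1 height. Of the 545 among these with a MED1 log2 ratio from 0 to under 1, 518 had a PPARγ log2 ratio above 0. Of the 1566 selected sites 1488 did, so the low share was not particular to the selection. The lowest selected site, chr1:33776835-33777021, had 16.7 and 4.16 units of PPARγ, a ratio of 0.249 (0.0726 to 0.689), beside 10.5 and 107 of MED1. At chr15:58655390-58655576 PPARγ was 20.2 and 9.15 units, a ratio of 0.452 (0.199 to 0.966), with 17.5 and 122 of MED1. These are the 2 sites whose PPARγ interval lay below 1. The next 3, chr5:3543710-3543896, chr17:25998362-25998548 and chrX:99149647-99149833, had ratios from 0.559 to 0.630 with intervals that held 1.

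CBP, the other coactivator, was higher in rosiglitazone at the sites by about as much as at PPARγ peaks in general. The median CBP value was 22.1 units in DMSO and 30.3 in rosiglitazone, and the summed ratio was 1.41 (1.37 to 1.44), against 1.38 (1.37 to 1.39) over all PPARγ peaks and 1.35 (1.31 to 1.38) over the 735 peaks of like MED1 height. CBP was at least 2-fold higher at 430 sites (27.5%), where the background was 23.6%, and at least 2-fold lower at 245 (15.6%), where it was 25.1%. In the score deciles the interval of the selected sites lay above that of the other peaks in 0 of 10 and below it in 2.

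Counts of CBP were thin, and they moved with the scaling. Among the 556 sites with 20 or more CBP tags, 143 (25.7%) were at least 2-fold higher against a background of 22.7%, and 34 (6.12%) were lower against 5.70%. Setting the CBP columns to the same sum over all peaks shifts log2 ratios by -0.46, after which 222 sites (14.2%) were at least 2-fold higher, against 14.8% of all peaks, and 334 (21.3%) lower, against 27.6%. The median log2 ratio at the sites was then -0.01.

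The summed CBP ratio differed with the MED1 and PPARγ ratios inside the selection. It was 1.32 (1.27 to 1.38) in the lowest band of MED1 ratio and 1.49 (1.41 to 1.57) in the highest. Counted by site the bands were mixed, with median CBP log2 ratios of 0.35, 0.39, 0.44 and 0.39 from lowest to highest. In the lowest band 22.3% of sites were at least 2-fold higher in CBP and 14.7% lower, and in the highest 32.1% and 22.7%. At the 906 sites with at least 2-fold more PPARγ the summed CBP ratio was 1.50 (1.46 to 1.55). At the 582 with a PPARγ log2 ratio between 0 and 1 it was 1.28 (1.23 to 1.33), and at the 78 with 0 or less it was 1.13 (1.00 to 1.27). MED1 ratios in these 3 classes were 3.15, 3.01 and 3.26. The rule held MED1 at a log2 ratio of 1 or more at every site, so their order is not compared with that of CBP.

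Among sites with 20 or more CBP tags, the 5 with the largest CBP ratios also had large PPARγ ratios. At chr1:37006409-37006595 CBP was 15.5 and 109 units, a ratio of 7.06 (2.81 to 19.98), and PPARγ was 14.1 and 89.0. At chr4:137043479-137043665 CBP was 30.9 and 200 units, a ratio of 6.47 (3.37 to 13.1), and PPARγ was 116 and 377. The next 3, chr11:95048318-95048504, chr4:154510404-154510590 and chr2:157297180-157297366, had CBP ratios of 6.40, 5.49 and 5.10 and PPARγ ratios of 8.45, 8.51 and 3.82. All 5 thus had PPARγ ratios above 3, but so did the site with the lowest CBP ratio among such sites, chr10:79615789-79615975, with 3.23 (2.29 to 4.65).

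The 3 lowest CBP ratios among sites with 20 or more CBP tags were far below 1. At chr10:79615789-79615975 it was 50.8 units in DMSO and 0 tags in rosiglitazone, at least 2.79-fold lower against a floor of 3 tags, while MED1 was 48.9 and 153 units and PPARγ 37.8 and 122. At chr4:33334441-33334627 CBP was 46.4 and 6.06 units, a ratio of 0.131 (0.00316 to 0.812), with PPARγ at 84.4 and 101. At chr6:113481515-113481701 CBP was 44.2 and 6.06 units, a ratio of 0.137 (0.00331 to 0.858). The last 2 rested on 1 tag in rosiglitazone.

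C/EBPα was lower in rosiglitazone at the selected sites. Its median was 13.3 units in DMSO and 10.2 in rosiglitazone, and the summed ratio was 0.841 (0.827 to 0.856), against 0.984 (0.978 to 0.990) over all PPARγ peaks and 0.924 (0.907 to 0.942) over the 735 peaks of like MED1 height. Within those 735, the 545 with a MED1 log2 ratio from 0 to under 1 had 0.855 (0.836 to 0.873), an interval that overlaps that of the selected sites. The 80 with one between -1 and 0 had 1.25 (1.18 to 1.32), and the 110 with at least 2-fold less MED1 had 1.20 (1.125 to 1.28). C/EBPα was at least 2-fold lower at 386 sites (24.6%), where the background was 18.7%, and at least 2-fold higher at 205 (13.1%), where it was 24.5%. The median log2 ratio was -0.34, and -0.32 after setting the C/EBPα columns to the same sum. In each of 10 score deciles the interval of the selected sites lay below that of the other peaks.

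The C/EBPα difference was also present at well covered sites. Among the 625 sites with 20 or more C/EBPα tags, 86 (13.8%) were at least 2-fold lower against a background of 8.07%, and 70 (11.2%) were higher against 15.4%. The difference was larger where PPARγ differed less. At the 906 sites with at least 2-fold more PPARγ the C/EBPα ratio was 0.965 (0.946 to 0.985), at the 582 with a PPARγ log2 ratio between 0 and 1 it was 0.634 (0.615 to 0.654), and at the 78 with 0 or less it was 0.569 (0.512 to 0.632). It also varied with MED1 before treatment, from 0.790 (0.741 to 0.843) at the sites under 25 units to 0.927 (0.897 to 0.959) at those with 100 or more. As said above, these groups also differed in the MED1 ratio and in PPARγ.

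Single sites with 20 or more C/EBPα tags went both ways in C/EBPα. At chr19:6363352-6363538 C/EBPα was 35.3 and 6.37 units, a ratio of 0.180 (0.0516 to 0.515), while PPARγ was 15.8 and 49.1 and CBP 19.9 and 60.6. At chr6:112646543-112646729 C/EBPα had the same values, with PPARγ at 5.28 and 10.8. At chr11:30549343-30549529 it was 39.8 and 7.64 units, a ratio of 0.192 (0.0625 to 0.506). PPARγ was higher in rosiglitazone at all 3 of these sites, with an interval that held 1 at chr6:112646543-112646729.

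The 5 highest C/EBPα ratios among such sites came with PPARγ ratios well above 1 as well. At chr7:72425949-72426135 C/EBPα had 0 tags in DMSO and 42.0 units in rosiglitazone, at least 6.35-fold higher against the floor of 3 tags, and PPARγ was 6.16 and 78.2 units. At chr4:134862593-134862779 it had 0 tags and 25.5 units, at least 3.85-fold higher, with PPARγ at 20.2 and 115. At chr3:145506971-145507157 it was 2.21 and 44.6 units, from 1 DMSO tag, a ratio of 20.2 (3.39 to 820), while CBP was 33.2 units in DMSO and 0 tags in rosiglitazone. The ratios at chr1:132838465-132838651 and chr4:53132960-53133146 were 17.3 and 11.5, each from 1 DMSO tag.

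The antibodies did not differ together at most sites. PPARγ and CBP were both at least 2-fold higher at 280 sites (17.9%, 16.01 to 19.9), against 7.83% of all PPARγ peaks and 10.7% of the peaks of like MED1 height. C/EBPα joined them at 59 sites (3.77%), against 2.08% of all peaks and 3.40% of those of like height. PPARγ was at least 2-fold higher without such a CBP difference at 626 sites (40.0%, 37.5 to 42.4). This held at 22.1% of all peaks and 37.0% (33.5 to 40.6) of those of like height, whose interval overlaps. CBP was so without PPARγ at 150 (9.58%), against 15.8% and 10.6%, and neither was at 510 (32.6%), against 54.2% and 41.6%. At 157 sites (10.0%) PPARγ was at least 2-fold higher and C/EBPα at least 2-fold lower. That pattern was present at 5.44% of all peaks and 4.76% of those of like height.

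A C/EBPα peak overlapped most of the selected sites. With at least 1 bp in common, 977 (62.4%, 59.9 to 64.8) overlapped one, compared with 36.1% (35.5 to 36.6) of all PPARγ peaks and 73.2% (69.8 to 76.4) of the peaks of like MED1 height outside the selection. In the lowest score decile 17 of 36 selected sites overlapped (47.2%, 30.4 to 64.5) against 17.9% (16.5 to 19.3) of the other peaks there, and in the highest 71.6% (67.9 to 75.1) against 67.1% (65.2 to 69.0). The C/EBPα centre lay within 20 bp of the PPARγ centre at 286 sites (18.3%), against 9.90% of all PPARγ peaks and 21.8% of the peaks of like MED1 height. At 386 sites (24.6%) no C/EBPα centre lay within 1 kb, against 52.9% and 16.1%.

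Sites with and without a C/EBPα peak differed in PPARγ more than in the coactivators. The PPARγ ratio was 2.65 (2.62 to 2.69) at the 977 overlapping sites and 2.23 (2.19 to 2.28) at the 589 others. CBP ratios were 1.41 (1.37 to 1.45) and 1.40 (1.34 to 1.46), and C/EBPα ratios 0.847 (0.833 to 0.862) and 0.778 (0.735 to 0.825). The CBP intervals overlapped, while those of PPARγ and of C/EBPα did not. Peaks of like MED1 height outside the selection had the same order in PPARγ, with 2.01 (1.98 to 2.05) and 1.74 (1.69 to 1.79).

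The sites were spread over the genome and mostly stood alone. They made up from 2.73% of the PPARγ peaks on chromosome X to 7.12% on chromosome 11. The PPARγ ratio at the sites was above 1 on 20 of 20 chromosomes, from 1.40 on X to 2.95 on chromosome 9. CBP was above 1 on 20, and C/EBPα was below 1 on 18. Over all PPARγ peaks of the genome these ratios were already 1.53, 1.38 and 0.984, and the PPARγ ratio on X was below the first. Ratios of the other peaks were not taken by chromosome, so these tallies have no background of their own. Another selected site lay within 10 kb of 224 of them (14.3%, 12.6 to 16.1), against 13.6% (11.2 to 16.3) of the peaks of like MED1 height and 5.54% of all other PPARγ peaks. Joining sites with centres no more than 10 kb apart left 1342 single sites, 79 runs of 2, 18 runs of 3 and 3 runs of 4.

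The 3 runs with the most sites differed in how PPARγ stood before treatment. In the run on chromosome 2 from 167513304 to 167527933, MED1 in DMSO was 28.0, 175, 105 and 255 units along the run and 138, 796, 727 and 1278 in rosiglitazone. PPARγ there was 73.0, 106, 42.2 and 206 units in DMSO and 195, 304, 167 and 604 in rosiglitazone. The summed ratios of the run were 5.22 (4.33 to 6.32) for MED1 and 2.98 (2.69 to 3.31) for PPARγ. All 4 sites were strong PPARγ peaks in DMSO, and MED1 differed more than PPARγ.

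The run on chromosome 7 from 35954368 to 35961775 showed the opposite order. MED1 was 315, 259, 112 and 69.9 units in DMSO and 673, 796, 321 and 214 in rosiglitazone, a summed ratio of 2.66 (2.21 to 3.20). PPARγ was 6.16, 32.5, 11.4 and 14.1 units in DMSO and 121, 196, 86.5 and 68.2 in rosiglitazone, a summed ratio of 7.36 (5.76 to 9.52). PPARγ thus differed more than MED1 in this run, and 1 of its 4 sites, the first, was below the median PPARγ of all peaks in DMSO, 10.55 units. CBP had a ratio of 1.26 (0.814 to 1.92) and C/EBPα of 1.45 (0.970 to 2.21), both with intervals that held 1.

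In the run on chromosome 11 from 120116476 to 120131432, MED1 had the larger summed ratio, with an interval that overlapped that of PPARγ. MED1 was 140, 129, 119 and 69.9 units in DMSO and 429, 536, 329 and 253 in rosiglitazone, a summed ratio of 3.38 (2.697 to 4.24). PPARγ was 33.4, 40.5, 50.1 and 22.9 units in DMSO and 75.7, 101, 116 and 64.9 in rosiglitazone, a ratio of 2.43 (2.03 to 2.93). In all 3 runs each of the 4 sites had at least 2-fold more PPARγ, as did 57.9% of all selected sites and 30.0% of all PPARγ peaks. Runs of 3 sites were mixed. For example, 1 of 3 sites had it on chromosome 9 from 40129039 to 40144555, and 3 of 3 had it from 63953288 to 63964942.

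**Figure D4:**
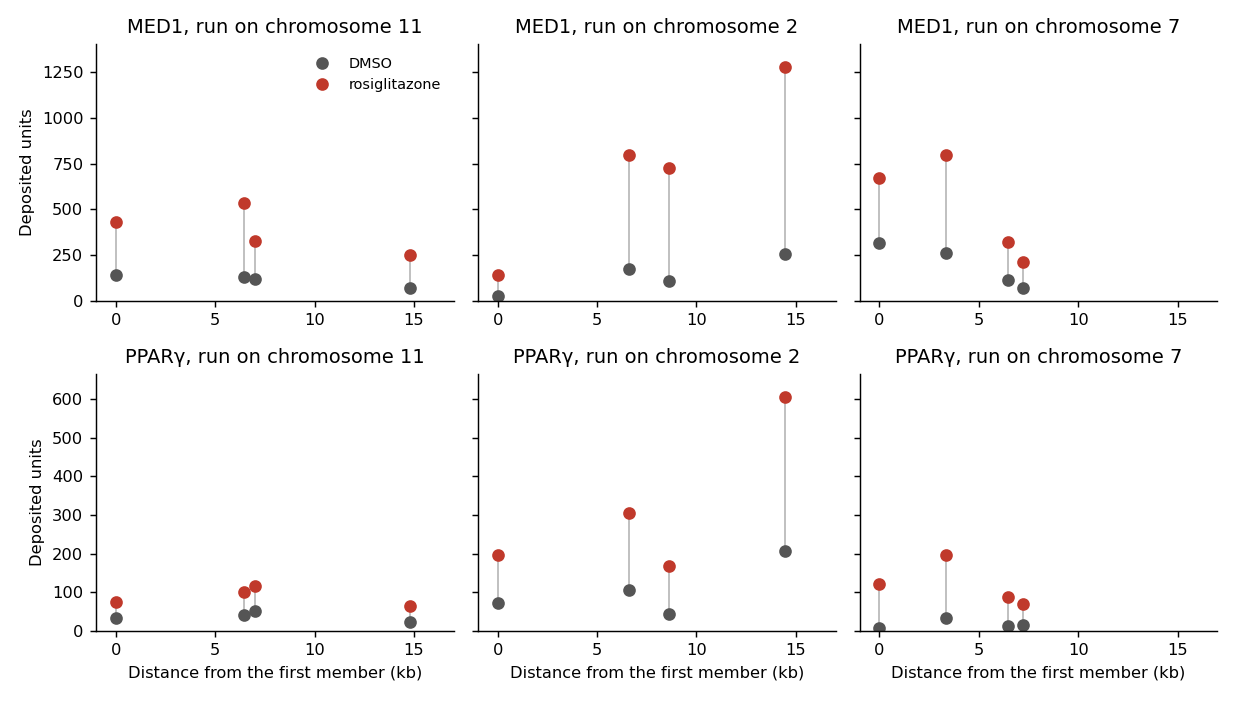
MED1 (upper row) and PPARγ (lower row) in deposited units at the 4 selected sites of each of the 3 runs with the most sites, against distance from the first site, with DMSO in grey and rosiglitazone in red. The chromosome 2 run has the highest values of both factors, and in the chromosome 7 run PPARγ in DMSO lies between 6.16 and 32.5 units.

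MED1 was also measured at C/EBPα peaks that no PPARγ peak overlapped, whose MED1 values did not enter the selection. Each was assigned to the nearest PPARγ peak with 100 or more MED1 units. At the 109 of these under 0.5 kb from a selected site, MED1 was 1.87 times as high in rosiglitazone (1.71 to 2.05), and at the 34 that close to a peak of like MED1 height outside the selection it was 1.36 (1.20 to 1.53). PPARγ ratios at these 2 sets were 2.31 (2.14 to 2.49) and 2.30 (2.12 to 2.51), with overlapping intervals. At 0.5 to 2 kb the MED1 ratios were 1.44 (1.33 to 1.57) and 1.32 (1.18 to 1.47), and at 2 to 10 kb they were 1.36 (1.27 to 1.45) and 1.13 (1.03 to 1.23). At 10 to 50 kb they were 1.22 (1.17 to 1.27) and 1.23 (1.16 to 1.30). Over all 19486 C/EBPα peaks without a PPARγ peak the MED1 ratio was 1.23 (1.21 to 1.25), so at that distance no difference from the whole list was left. Windows this near come from the same 2 MED1 libraries and can share fragments, and the part of shared fragments was not tested.

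**Figure D5:**
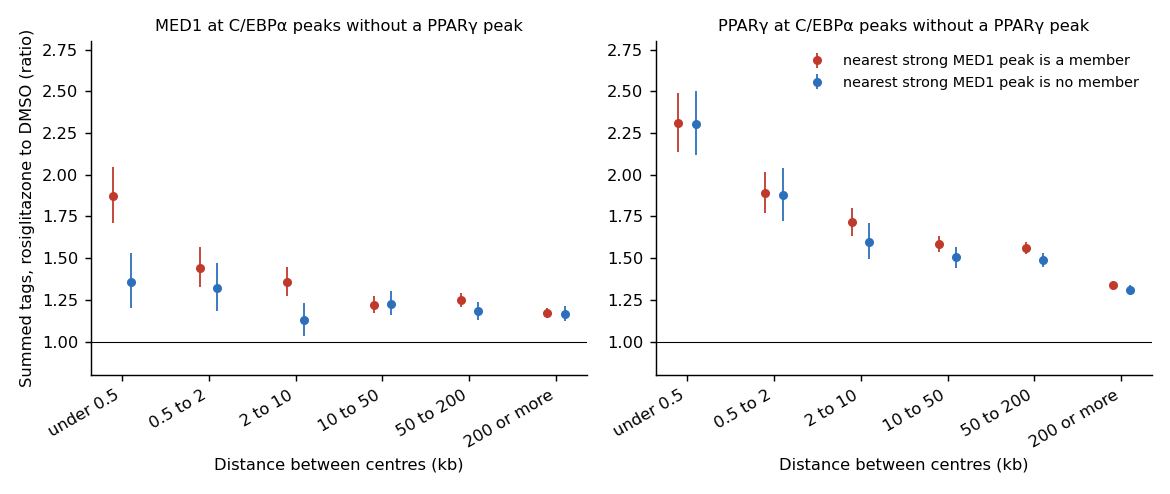
Summed ratio of rosiglitazone to DMSO for MED1 (left) and PPARγ (right) at C/EBPα peaks without an overlapping PPARγ peak, by distance in kb to the nearest PPARγ peak of MED1 height 100 or more, which is a selected site (red) or not (blue), with exact 95% intervals. MED1 is 1.87 within 0.5 kb of a selected site and 1.22 at 10 to 50 kb, and it is 1.23 over all these C/EBPα peaks.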

How the data were processed

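The submitters' processing notes name mm9 as the build and Bowtie, FastQC, edgeR and HOMER as the tools. Their settings, and which tool did what, are not stated in the labels or headers. The authors deposited, for each PPARγ and C/EBPα peak, a normalised tag signal in 8 columns, a peak score and a focus ratio, which is a fraction. BRL, which heads the second MED1 column, is a code for rosiglitazone, and that column was matched to the single MED1 sample with the drug. The PPARγ columns name no replicate, while the labels list 2 PPARγ samples per treatment, so each was taken as 1 library. RNA polymerase II and input were not analysed here.

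Deposited signal values divided by the worth of 1 tag came out whole, within 0.02, for 100% of values in every column. The depths assume scaling to 10 M, which no header states. Log2 ratios used a pseudocount of 1. Summed ratios are scaled tag ratios with exact 95% Clopper-Pearson intervals, folds against 0 tags used a floor of 3 tags, and the code was tested on simulated data. High-background regions of 1 Mb needed at least 5 PPARγ peaks without a C/EBPα peak. Python 3.11.15, numpy 2.4.6, pandas 2.3.3 and scipy 1.17.1 were used.

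Sites were named by rule: the 10 highest in MED1 in rosiglitazone, the 5 highest MED1 ratios, 5 on each side of the ratio threshold, the 5 highest and 5 lowest PPARγ ratios, the 5 highest and 3 lowest CBP and C/EBPα ratios with 20 or more tags, and the runs with the most sites. The sites and lists were chosen with earlier results of these data known. Sequences, motifs and nearby genes were not analysed here.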

Additional observations from a re-analysis of the deposited data

How the results depend on the processing

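Of 47 alternative values, 24 stayed near the value reported, 23 moved and 0 reversed direction. Many of these values are counts or shares, which have no direction to reverse, so the last number says little about them. Those called near include 1306 sites with a pseudocount of 20, in place of 1566. With CBP rescaled, sites at least 2-fold lower in CBP (334) outnumbered those higher (222), while before it 245 were lower and 430 higher. The number of sites was 3604 at a height of 50, 395 at a height of 200, 265 with the MED1 columns set to the same sum and 208 with the MED1 log2 ratio centred on peaks of height 100 or more. The summed PPARγ ratio was 2.64 at a height of 200, 2.65 with MED1 rescaled and 2.21 as a median over sites. The CBP ratio was 1.51, 1.60 and 1.33, and the C/EBPα ratio 0.902, 0.822 and 0.790, under the same 3 settings. Sites at least 2-fold higher in PPARγ numbered 480 with PPARγ rescaled. For CBP they numbered 143 with 20 or more tags, where fewer sites entered, and 222 with CBP rescaled. For C/EBPα they numbered 108 with a pseudocount of 5 and 70 with 20 or more tags. The share overlapping a C/EBPα peak was 56.6% for an overlap of 93 bp, 74.7% at a height of 200 and 70.6% with MED1 rescaled. The share with another selected site nearby was 25.5% within 25 kb and 8.94% within 5 kb. Where construction does not show it, the cause was not tested. Leaving out high-background regions, and keeping only sites whose MED1 interval lay above 1, were chosen after seeing the data, and left every value they were run on near the one reported.

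No paired analysis was possible because the PPARγ columns carry no replicate number and the other antibodies have 1 sample per treatment. The planned motif alternatives were not run, since no genome of the build was used here. MED1 and CBP had a median of 1 tag per PPARγ peak in rosiglitazone, so single sites are poorly measured, and neither the spread between cultures nor library enrichment was measured.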
